A study of Mus musculus with 12 samples.

Results

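The hypoxia-inducible factor (HIF) pathway was followed here through 10 genes, picked by name from the 23983 entries of each deposited table. They are 6 genes of HIF subunits and oxygen sensing (Hif1a, Epas1, Arnt, Egln1, Egln3 and Vhl) and 4 target genes (Bnip3, Ddit4, Adm and Ankrd37). All 10 had an entry of their own in both tables. The tissues were cortex and subcortex of newborn mice (postnatal day 0, mixed strain). Mice with Reck flex2/Δex1 and Tie2Cre are called vKO, for vascular knockout, and were set against mice labelled wild type (WT). Each of the 4 combinations of genotype and tissue had 3 libraries of total RNA, 12 in all. Reck is a membrane protein that works with Gpr124 in the response of brain endothelium to Wnt7 ligands. Tie2Cre is active in endothelial and blood lineages, so the knockout is not limited to vessels, and the labels do not say in which cells the Δex1 allele is present. The labels do not say whether replicates are single animals, whether both tissues came from 1 brain, or the sex of the mice. The authors' p-values then measure the spread between libraries, which may be technical in part.

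HIF-1alpha (Hif1a) and HIF-2alpha (Epas1) are transcription factor subunits whose amount is set mainly by protein decay. With oxygen present, the prolyl hydroxylases encoded by Egln1 and Egln3 modify them, the product of Vhl binds the hydroxylated protein, and it is degraded. When oxygen is low the alpha subunits last, pair with the partner subunit encoded by Arnt, and bind hypoxia response elements near target genes, whose core is ACGTG or GCGTG. Egln3 and, in many cells, Egln1 are themselves induced by HIF. Messenger RNA therefore reports on targets more directly than on the sensing step, and no protein or oxygen value was measured here.

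The 250 bases before the start of each of the 4 targets are printed to show where that core occurs in the promoters whose RNA is described below. They come from RefSeq on GRCm38.p6, the assembly behind mm10, and run 5′ to 3′ on the strand of the gene, with capitals marking ACGTG or GCGTG on either strand (CACGT or CACGC as read here). The palindrome CACGTG counts on both strands.
Bnip3 (chr7:138909507-138909756, minus strand): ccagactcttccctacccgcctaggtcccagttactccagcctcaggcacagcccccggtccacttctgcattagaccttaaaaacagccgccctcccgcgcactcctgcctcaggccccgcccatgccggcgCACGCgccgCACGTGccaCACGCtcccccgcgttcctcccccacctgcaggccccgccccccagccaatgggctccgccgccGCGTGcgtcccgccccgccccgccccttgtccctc
Ddit4 (chr10:59951771-59952020, minus strand): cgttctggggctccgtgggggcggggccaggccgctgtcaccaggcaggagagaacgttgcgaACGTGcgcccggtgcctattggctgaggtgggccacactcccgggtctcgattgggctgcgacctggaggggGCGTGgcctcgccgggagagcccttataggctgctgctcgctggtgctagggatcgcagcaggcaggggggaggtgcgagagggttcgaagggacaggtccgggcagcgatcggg
Ankrd37 (chr8:45999851-46000100, minus strand): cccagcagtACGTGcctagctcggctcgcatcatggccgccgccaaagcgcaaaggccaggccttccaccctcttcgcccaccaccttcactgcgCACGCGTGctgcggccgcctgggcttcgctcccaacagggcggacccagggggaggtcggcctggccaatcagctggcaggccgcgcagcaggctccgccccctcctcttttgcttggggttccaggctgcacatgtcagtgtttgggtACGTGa
Adm (chr7:110627407-110627656, plus strand): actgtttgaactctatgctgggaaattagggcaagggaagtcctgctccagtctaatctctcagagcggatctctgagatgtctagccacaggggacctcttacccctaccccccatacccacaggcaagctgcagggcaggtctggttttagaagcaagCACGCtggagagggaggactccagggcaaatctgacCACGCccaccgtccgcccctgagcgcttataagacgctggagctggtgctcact
Bnip3 held 5 matches, Ankrd37 4, Ddit4 2 and Adm 2. Of 13337 promoters of genes tested in either table, 54.9% held at least 1 match in this window, 26.4% at least 2 and 4.61% at least 4. Sequences were found for 9 of the 10 members, all but Epas1. In the same window Hif1a held 3 matches, Egln1 2, Arnt 1, Egln3 1 and Vhl 0. For Hif1a alone, the bases after the start were not found in the transcript used here. Its window (chromosome 12, 73907617 to 73907866) lies inside the gene span given below. The printed Ankrd37 window also lies inside the span given for that gene, although the bases after its start were found in the transcript. For both genes the start used is therefore not the outermost annotated one. A match describes these letters and is not a binding site.

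Values are FPKM, fragments scaled by transcript length and library size, with 1 value per group computed by the authors from all libraries of the group. No value per library was used here, so the spread between replicates and the sequencing depth are unknown. The words rose and fell are kept for genes whose q-value was under 0.05 in the authors' deposited table for that tissue. Changes are log2((vKO FPKM + 1)/(WT FPKM + 1)), so that positive values mean higher in vKO. The tables were normalized separately. Genes typical of cortical neurons and their progenitors separated the tissues as labelled: Neurod6 was at 168 FPKM in vKO and 98.3 in WT cortex, and at 6.08 in vKO and 6.61 in WT subcortex, and Emx1 was at 15.3 in vKO and 13.3 in WT cortex, and at 0.113 in vKO and 0.106 in WT subcortex. Reck itself stood at 3.23 FPKM in vKO and 2.91 in WT cortex, and at 3.49 in vKO and 2.37 in WT subcortex. Its value over the whole gene in whole tissue does not check the deletion. Markers of sex moved with genotype. Xist was at 18.6 FPKM in vKO and 0.0417 in WT cortex, and at 10.2 in vKO and 0.0369 in WT subcortex, and the Y-linked gene Eif2s3y was at 15.8 in vKO and 30.4 in WT cortex, and at 13.3 in vKO and 27.6 in WT subcortex. Sex composition and genotype cannot be told apart here.

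In cortex the 2 abundant targets Bnip3 and Ddit4 rose, while the HIF-2alpha gene Epas1 and the shared partner gene Arnt fell. Hif1a, Egln1, Egln3, Vhl and Ankrd37 were not called, and Adm was marked by the authors as too low to test. By the authors' deposited table, 4 of the 9 members tested in cortex were called, 2 higher and 2 lower. Over all 13594 genes tested there, 19.5% were called, 8.15% higher and 11.3% lower. In subcortex none of the 9 tested members was called at a q-value under 0.05, against 0.714% of 13735 genes tested there, 0.451% higher and 0.262% lower. At an unadjusted p-value under 0.05 in the authors' deposited table, 1 member was higher in vKO subcortex, Epas1, and 0 were lower.

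**Figure D1:**
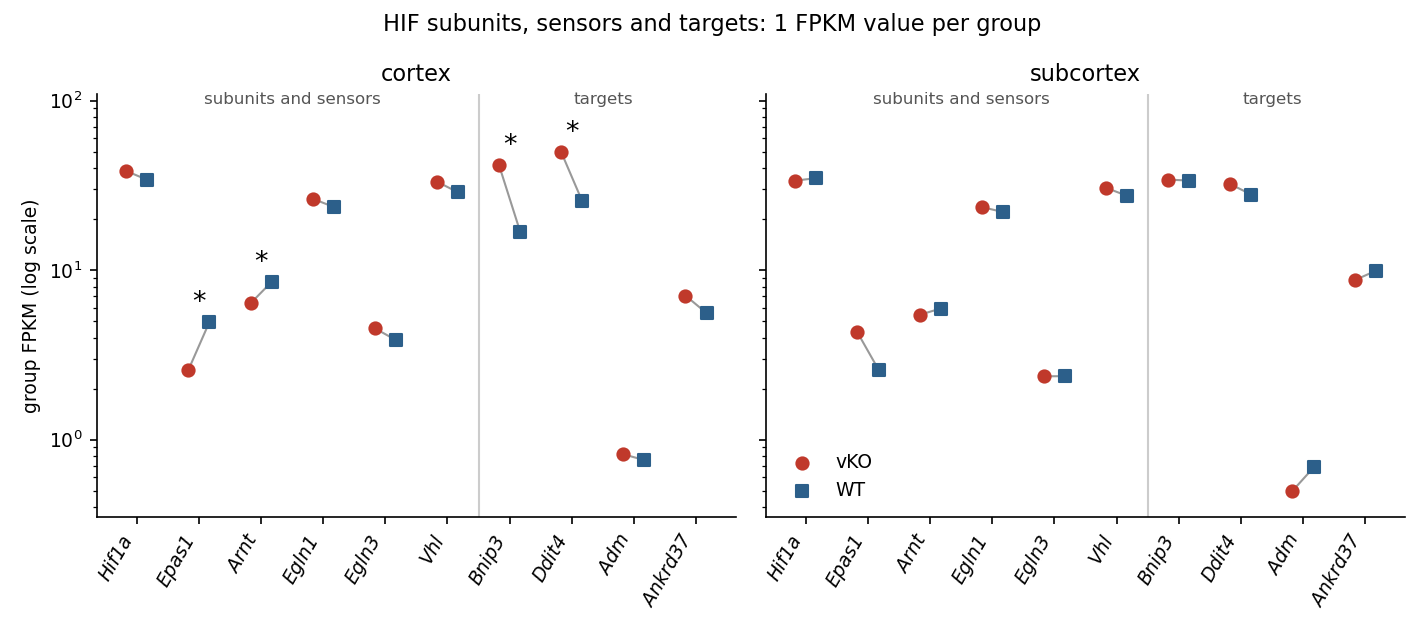
FPKM of the 10 genes in vKO (circles) and WT (squares) of cortex and subcortex, 1 value per group on a log axis, with an asterisk where the authors' q-value was under 0.05. Bnip3 and Ddit4 stand higher in vKO cortex (41.5 and 49.6 FPKM) than in WT cortex (16.8 and 25.4), Epas1 and Arnt stand lower, and no pair of subcortex carries an asterisk.

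Among the alpha subunits, Hif1a (chromosome 12, 73901375 to 73947530 on the plus strand) was one of the most abundant members, at 38.4 FPKM in vKO and 34.1 in WT cortex, and at 33.7 in vKO and 34.9 in WT subcortex. The 4 groups differed by at most 1.14-fold. The log2 ratio was 0.17 in cortex (q = 0.448 in the authors' deposited table), and -0.05 in subcortex (q = 0.999 in the same authors' table). Its exons share 191 bases with an antisense gene, Gm15283, and 148 with Gm49321 on the same strand, and nothing used here says whether reads were counted by strand.

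Epas1 (chromosome 17, 86753700 to 86833410, plus strand), the alpha subunit known for its expression in endothelial cells, had opposite ratios in the tissues. It fell to 2.58 FPKM in vKO cortex, against 4.96 in WT cortex, a log2 ratio of -0.74 (q = 0.000806 in the authors' deposited table). Its p-value of 5e-05 is the lowest that table lists, and 843 tested cortex genes share it, Bnip3 and Ddit4 among them. In subcortex it had 4.29 FPKM in vKO and 2.59 in WT, a log2 ratio of 0.56 which the authors' deposited table lists with p = 0.0004 and q = 0.0544. The ratio stood at percentile 2.99 of all tested genes in cortex and at percentile 98.7 in subcortex. The difference between the tissues was not tested, since no values per library were used. In bulk tissue, fewer cells of a type and less RNA per cell cannot be told apart.

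Endothelial markers had ratios on both sides of 0 in each tissue. Over all tested genes 8.15% were called higher and 11.3% lower in cortex, and 0.451% and 0.262% in subcortex. Of the 7 endothelial genes tested in cortex (Pecam1, Cdh5, Esam, Tie1, Erg, Cldn5 and Kdr), 3 fell and 0 rose (calls of the authors' deposited table), and their summed FPKM was 57.3 in vKO and 86.1 in WT. The tight junction gene Cldn5 had 24.6 FPKM in vKO and 46.8 in WT cortex and the VEGF receptor gene Kdr 5.30 and 11.0, but Cdh5, the cadherin of endothelial junctions, had 6.80 in vKO and 6.89 in WT. Pecam1, an adhesion molecule of endothelium, had 8.47 FPKM in vKO and 6.49 in WT cortex (0.34) and was not called. In subcortex 2 of the 7 rose and 0 fell (calls of the authors' deposited table), and the sum was 74.0 in vKO and 68.4 in WT. Pecam1 there had 10.1 FPKM in vKO and 5.12 in WT, and Cdh5 6.45 in vKO and 3.62 in WT, while Cldn5 (-0.16) and Erg (-0.08) had ratios below 0 and were not called. Of 6 pericyte genes 1 rose and 2 fell in cortex by the same rule, with sums of 48.0 FPKM in vKO and 45.1 in WT. Their median log2 ratio in cortex was -0.15. It was 0.16 with the trend with transcript length and GC content, described below, removed. In subcortex 1 of 5 tested pericyte genes rose and 0 fell, with sums of 46.1 in vKO and 42.2 in WT. The part of these cells in the Epas1 values was not tested.

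Arnt (chromosome 3, 95434388 to 95497240, plus strand), the partner of both alpha subunits, fell to 6.37 FPKM in vKO cortex, against 8.53 in WT cortex. The log2 ratio was -0.37 (q = 0.0468 in the authors' deposited table), close under the threshold. It was no longer called at a q-value under 0.01 or with a minimum change of 1.5-fold. In subcortex Arnt had 5.45 FPKM in vKO and 5.94 in WT, a log2 ratio of -0.10.

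The sensor genes had small ratios that were not called. Egln1 (chromosome 8, 124908587 to 124949324, minus strand), the main prolyl hydroxylase of most tissues, had 26.4 FPKM in vKO and 23.6 in WT cortex (0.16), and 23.6 in vKO and 22.0 in WT subcortex (0.09). Vhl (chromosome 6, 113623959 to 113631633, plus strand), the recognition subunit of the ubiquitin ligase, had 33.2 in vKO and 28.7 in WT cortex (0.20), and 30.6 in vKO and 27.4 in WT subcortex (0.15). Neither was called in either tissue: the cortex q-values in the authors' deposited table were 0.491 for Egln1 and 0.346 for Vhl.

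Egln3 (chromosome 12, 54178981 to 54203860, minus strand) was low in all 4 groups. It had 4.54 FPKM in vKO and 3.87 in WT cortex, and 2.37 in both vKO and WT subcortex, and was not called (q-value 0.450 in cortex in the authors' deposited table). Although a target of HIF, it had a log2 ratio of 0.19 in cortex, which lies among those of Egln1, Vhl and Hif1a (0.16 to 0.20) and below those of Bnip3 and Ddit4.

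Among the targets, Bnip3 (chromosome 7, 138890836 to 138909519, minus strand), which encodes a mitochondrial protein of mitophagy and cell death, had the highest ratio of the 10 genes in cortex. It rose to 41.5 FPKM in vKO cortex, against 16.8 in WT cortex, or 2.46-fold. The log2 ratio was 1.25, at percentile 99.4 of all tested genes (q = 0.000806 in the authors' deposited table). In subcortex the values were 34.1 in vKO and 33.7 in WT, a log2 ratio of 0.02 (q = 0.999 in the authors' deposited table). WT cortex was thus the low group, and the other 3 groups stood between 33.7 and 41.5 FPKM. Bnip3 has 6 annotated copies that match it at 93.4% to 99.7% identity over 347 to 858 bases. One of them, Gm45507, lies antisense to it, and 0 of the 6 have an entry in the tables, so reads may be shared between Bnip3 and its copies.

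Ddit4 (chromosome 10, 59949669 to 59951834, minus strand) encodes REDD1, an inhibitor of mTORC1 signalling that is induced by hypoxia, glucocorticoids and other stresses. It rose to 49.6 FPKM in vKO cortex, against 25.4 in WT cortex, or 1.95-fold. The log2 ratio was 0.94, at percentile 98.8 of all tested genes (q = 0.000806 in the authors' deposited table). Its values in subcortex were 32.1 FPKM in vKO and 27.9 in WT, a log2 ratio of 0.20 (q = 0.999 in the authors' deposited table). For Ddit4 the high group was vKO cortex, and the other 3 lay between 25.4 and 32.1 FPKM.

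Ankrd37 (chromosome 8, 45996902 to 46005707, minus strand), an ankyrin repeat gene known as a HIF-1 target, did not pass the test. It had 7.07 FPKM in vKO and 5.57 in WT cortex (0.30; q-value 0.690 in the authors' deposited table), and 8.72 in vKO and 9.91 in WT subcortex (-0.17; q-value 0.999 in the authors' deposited table). Its exons share 259 bases with Lrp2bp and 57 with Ufsp2, both on the opposite strand. Adm (chromosome 7, 110627661 to 110629820, plus strand), the gene of the vasodilator peptide adrenomedullin, had 0.821 FPKM in vKO and 0.758 in WT cortex, and 0.499 in vKO and 0.686 in WT subcortex. It entered no test in either tissue and is left out of the counts and medians.

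**Figure D2:**
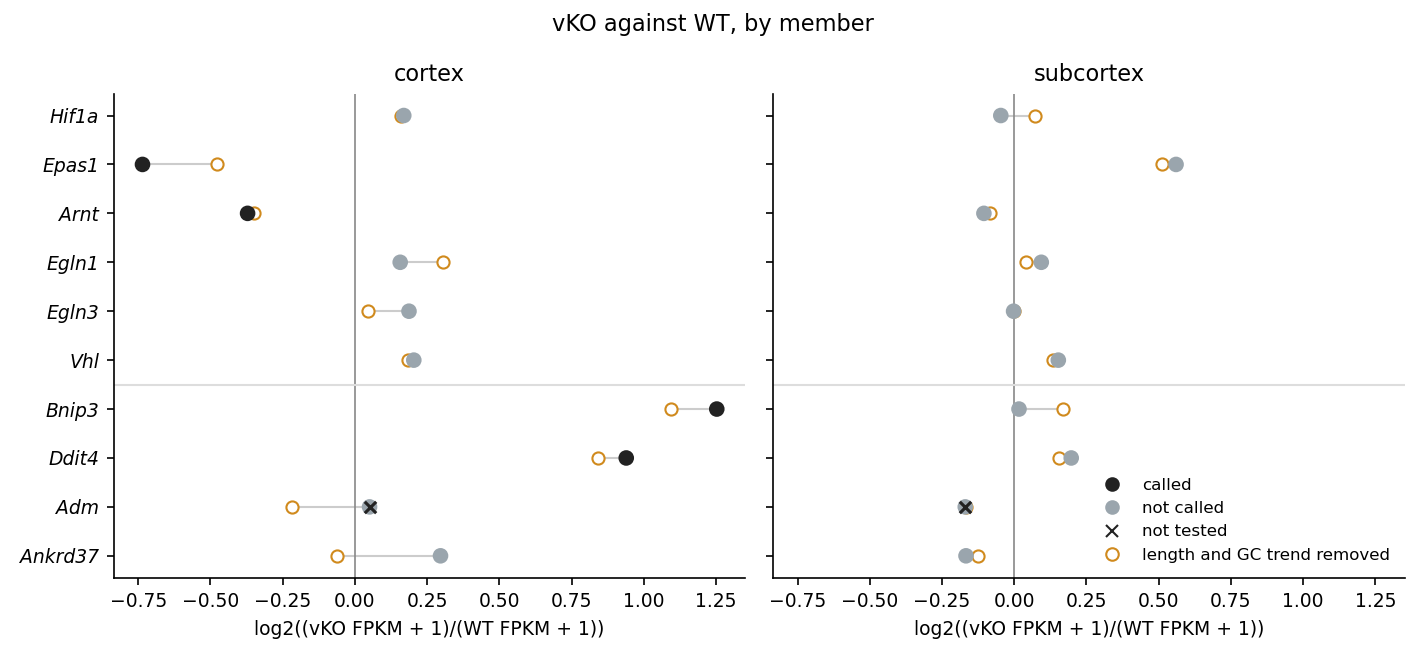
Log2 ratios of vKO over WT per gene in cortex and subcortex, subunits and sensors above the line and targets below it. Black points were called by the authors' q-value, grey ones were not, crosses were not tested, and open points have the trend with transcript length and GC content removed. In cortex Bnip3 (1.25) and Ddit4 (0.94) lie to the right of all subunits and sensors, and in subcortex Epas1 (0.56) lies farthest from 0.

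Set side by side, 2 of the 3 tested targets rose and 0 fell in cortex, while 0 of the 6 subunits and sensors rose and 2 fell (calls of the authors' deposited table). Over all tested cortex genes 8.15% were called higher and 11.3% lower, so 0 risen of 6 is near that background. The median log2 ratio was 0.94 for the tested targets and 0.16 for the subunits and sensors, against 0.00 for all tested genes. In subcortex the medians were 0.02 for the targets and 0.05 for the subunits and sensors, against -0.00 for all tested genes. With so few genes in each class these are descriptions, and the target median in cortex was 0.62 without Bnip3. Dividing every value by the sum of FPKM of its group moved the median of all tested cortex genes to -0.20 and turned the cortex ratios of Hif1a, Egln1 and Vhl to -0.05, -0.06 and -0.01. Under that scaling Bnip3 stood at 1.06 and Ddit4 at 0.73.

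The order of levels was similar in the 4 groups. In vKO cortex Ddit4, Bnip3, Hif1a, Vhl and Egln1 lay between 26.4 and 49.6 FPKM, Ankrd37, Arnt, Egln3 and Epas1 between 2.58 and 7.07, and Adm at 0.821. In WT cortex the same 5 leading genes lay between 16.8 and 34.1, with Hif1a first and Bnip3 last. In vKO subcortex they lay between 23.6 and 34.1, and in WT subcortex between 22.0 and 34.9. Without values per library it cannot be said which neighbours in these orders differ beyond their spread.

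Between tissues, across tables that were normalized separately, Bnip3 had the largest difference in WT, at 16.8 FPKM in WT cortex and 33.7 in WT subcortex, a log2 ratio of -0.96. In vKO its log2 ratio of cortex over subcortex was 0.27. Ankrd37 was also lower in WT cortex than in WT subcortex (-0.73), and Epas1 (0.73), Egln3 (0.53) and Arnt (0.46) were higher. Over 13167 genes tested in both tables the WT median was -0.05, with quartiles of -0.33 and 0.22. In vKO the Epas1 ratio of cortex over subcortex was -0.56, that of Egln3 0.72 and that of Ddit4 0.61. Over the same 13167 genes the vKO median was -0.02, with quartiles of -0.28 and 0.20. These differences between tissues have no test.

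Transcript length ran with the cortex ratios of all genes and differs between the classes of members. Across 13456 tested cortex genes with a length, Spearman's correlation of ratio and length was -0.551, and across 13605 in subcortex it was 0.0214. These describe genes, which are not independent replicates. The 3 tested targets have transcripts of 927 to 1756 bases and the 6 subunits and sensors 2662 to 5516. In length class 3 of 10, which holds Bnip3 and Ddit4, 12.4% of the genes tested in cortex were called higher, with a median ratio of 0.16. In class 9, which holds Epas1, 23.0% were called lower, with a median of -0.21, and in class 7, with Arnt, 9.67%. With the trend of ratios with length and GC content removed, Bnip3 stood at 1.09, Ddit4 at 0.84, Epas1 at -0.48 and Arnt at -0.35 in cortex. Ankrd37, in the shortest class, turned to -0.06. The medians in cortex were then 0.84 for the tested targets and 0.10 for the subunits and sensors.

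**Figure D3:**
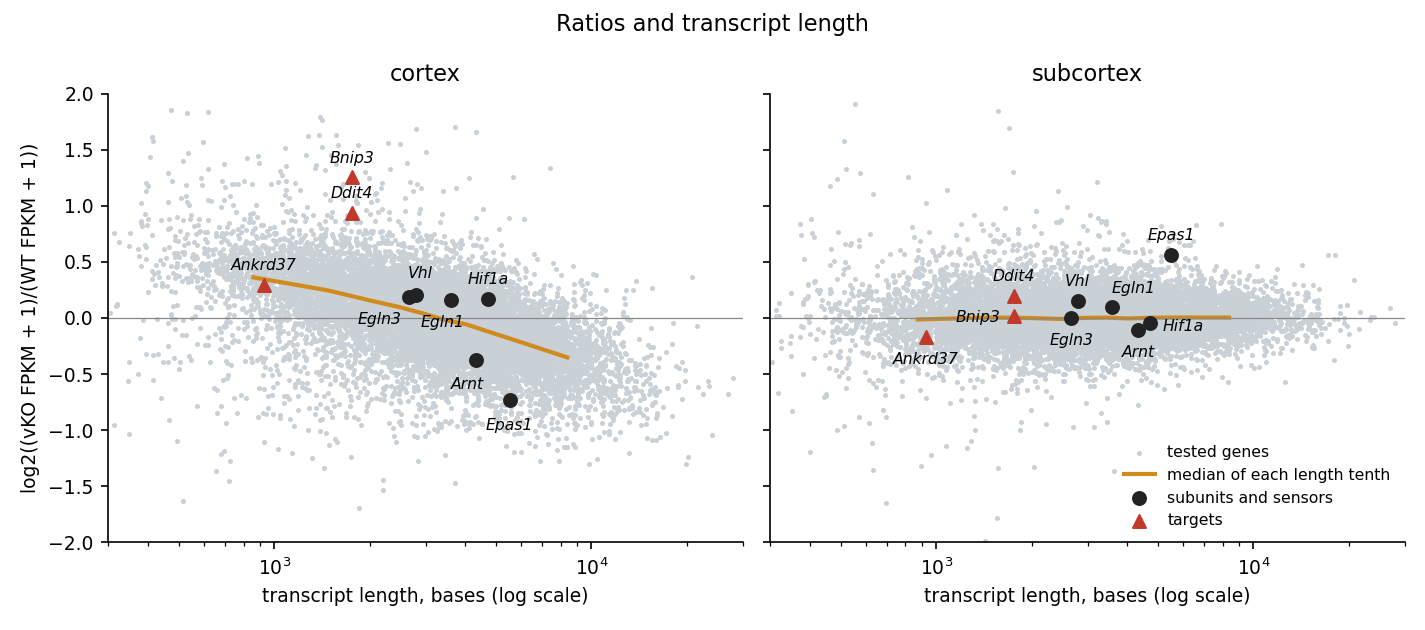
Log2 ratio of vKO over WT against transcript length (log axis) for tested genes (grey), the median of each length class (line), subunits and sensors (circles) and targets (triangles); 182 cortex and 139 subcortex genes lie outside the axes. The line slopes down in cortex and is flat in subcortex, and Bnip3 and Ddit4 lie far above it in cortex.

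RNA of marker genes of other cell types and of transcription factors listed for subcortex also differed between the genotypes in cortex. Over all tested genes 8.15% were called higher and 11.3% lower in cortex, and 0.451% and 0.262% in subcortex. Of 8 microglial and macrophage genes 7 rose and 0 fell in cortex (calls of the authors' deposited table), with a summed FPKM of 125 in vKO and 50.9 in WT. Erythroid genes summed to 1299 FPKM in vKO and 76.2 in WT, with 1 of 4 tested called higher. That gene was Alas2, at 34.6 in vKO and 5.70 in WT. Most of the vKO sum lay in 2 entries that both name Hba-a2, each at 613 FPKM. Neither was called, and Hba-a2 may be counted in both. Neutrophil genes summed to 37.2 in vKO and 2.26 in WT, with 1 of 2 tested called higher and Elane listed at 0 in both. Of 6 radial glia and astrocyte genes 3 rose and 0 fell (sums 1298 in vKO and 971 in WT), and of 6 meningeal fibroblast genes 2 rose and 0 fell (71.0 and 58.7). Median cortex ratios of the microglial, radial glia and meningeal lists were 1.07, 0.37 and 0.29. After removal of the trend with length and GC content they were 0.86, 0.17 and 0.37. Of 6 neuronal, 6 oligodendrocyte lineage and 4 tested choroid plexus genes 0 were called, with medians of 0.04, 0.02 and -0.02. At an unadjusted p-value under 0.05 these lists had 0, 0 and 1 genes, the last lower. The 6 transcription factor genes listed for subcortex summed to 13.2 FPKM in vKO and 21.1 in WT cortex. Of 4 tested there 2 were called lower, among them Tcf7l2 at 1.07 in vKO and 4.71 in WT. Isl1, which was not called, supplied 7.32 and 9.53 FPKM of these sums. It had 5.73 in vKO and 4.87 in WT subcortex, so it does not mark subcortex here. In subcortex the sums were 92.3 in vKO and 78.6 in WT for microglia and macrophages and 152 in vKO and 129 in WT for erythroid genes, and 0 genes of either list were called there (1 microglial gene higher and 0 erythroid genes at an unadjusted p-value under 0.05). Neutrophil genes there summed to 8.06 FPKM in vKO and 2.17 in WT, with a median of 1.28 over 2 tested. Choroid plexus genes summed to 734 in vKO and 497 in WT, of which Ttr alone held 719 and 484, with a median of 0.44 over 4 tested. Of these lists 0 genes were called in subcortex, and 1 neutrophil and 2 choroid plexus genes were higher at an unadjusted p-value under 0.05. Radial glia and astrocyte, meningeal fibroblast, neuronal and oligodendrocyte lineage genes had medians of 0.21, 0.12, -0.07 and 0.11 in subcortex, with 0 of 6 called in each list and 1 meningeal gene higher at an unadjusted p-value under 0.05. The part of these cells in the Bnip3 and Ddit4 values was not tested.

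The other regulators of HIF fell or were not called in cortex. Of 14 tested, 0 rose and 4 fell (calls of the authors' deposited table), with a median of 0.05, beside 8.15% called higher and 11.3% called lower over all tested cortex genes. The coactivator genes Ep300 and Crebbp had 7.08 and 14.4 FPKM in vKO and 14.8 and 28.4 in WT cortex, log2 ratios of -0.97 and -0.93. Arnt2, the neural relative of Arnt, had 28.4 in vKO and 45.2 in WT (-0.65), and Hif3a, a further alpha subunit, 0.593 in vKO and 1.30 in WT (-0.53). These 4 have transcripts of 6228 to 10820 bases. Arnt2 and Hif3a lie in length class 9, where 23.0% of tested cortex genes were called lower, and Ep300 and Crebbp in class 10, where 46.6% were. After removal of the trend with length and GC content the ratio was -0.51 for Ep300, -0.47 for Crebbp, -0.39 for Arnt2 and -0.26 for Hif3a. The further hydroxylase genes Egln2 and Hif1an had ratios of 0.10 and -0.31 and were not called. In subcortex 0 of the 14 were called, against 0.714% of all genes tested there. Of the 14, 1, Hif3a, was higher at an unadjusted p-value under 0.05 in the authors' deposited table (1.65 FPKM in vKO and 0.952 in WT). The 2 most abundant were the elongin B gene Tceb2, at 540 FPKM in vKO and 463 in WT subcortex, and Rbx1, at 73.7 and 83.6, both subunits of the ligase that Vhl belongs to.

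Further HIF targets in cortex numbered 6 risen and 3 fallen among 25 tested (calls of the authors' deposited table), with a median of 0.24. Over all tested cortex genes 8.15% were called higher and 11.3% lower, so the share of further targets called lower is near that background. The mitochondrial gene Fam162a had 47.5 FPKM in vKO and 26.0 in WT cortex (0.84), Pdk1, the kinase that restrains pyruvate dehydrogenase, 19.2 and 11.9 (0.65), and Higd1a, of the inner mitochondrial membrane, 24.9 and 16.1 (0.60). Vegfa, which encodes the main angiogenic growth factor, rose as well (0.66). Tfrc, the transferrin receptor, fell to 14.9 FPKM in vKO cortex, against 22.5 in WT cortex (-0.56). The other called genes were Bnip3l (0.39) and Hilpda (0.49), which rose, and Angptl4 (-0.57) and Vldlr (-0.36), which fell. After removal of the trend with length and GC content the median was 0.20, and the ratios of Fam162a, Hilpda and Vldlr were 0.48, 0.13 and -0.12. Those of Vegfa, Pdk1, Higd1a and Bnip3l were then 0.68, 0.71, 0.46 and 0.28, and those of Tfrc and Angptl4 -0.57 and -0.56. Fam162a (718 bases) and Hilpda (982 bases) lie in the shortest length class, where 28.2% of tested cortex genes were called higher. Bnip3l, the mitophagy relative of Bnip3, is also known for clearing mitochondria from maturing red cells. Bnip3l had 43.5 FPKM in vKO and 33.1 in WT cortex, beside the erythroid sums above. The part of red cells in the Bnip3l values was not tested. Epo was listed at 0 in all 4 groups.

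Over all genes tested in subcortex, 0.451% were called higher and 0.262% lower. Of 24 tested further targets 1 rose and 0 fell there, with a median of -0.01. It was Slc2a1, the glucose transporter of barrier endothelium and astrocytes, at 21.9 FPKM in vKO and 12.8 in WT subcortex (0.73) (q = 0.0104 in the authors' deposited table). In cortex Slc2a1 had 13.6 in vKO and 16.9 in WT and was not called. Fam162a, Vegfa, Higd1a and Pdk1 had ratios of -0.35, -0.35, -0.29 and -0.15 in subcortex and were not called there. At an unadjusted p-value under 0.05 in the authors' deposited table, 3 of the 24 were higher and 4 lower.

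**Figure D4:**
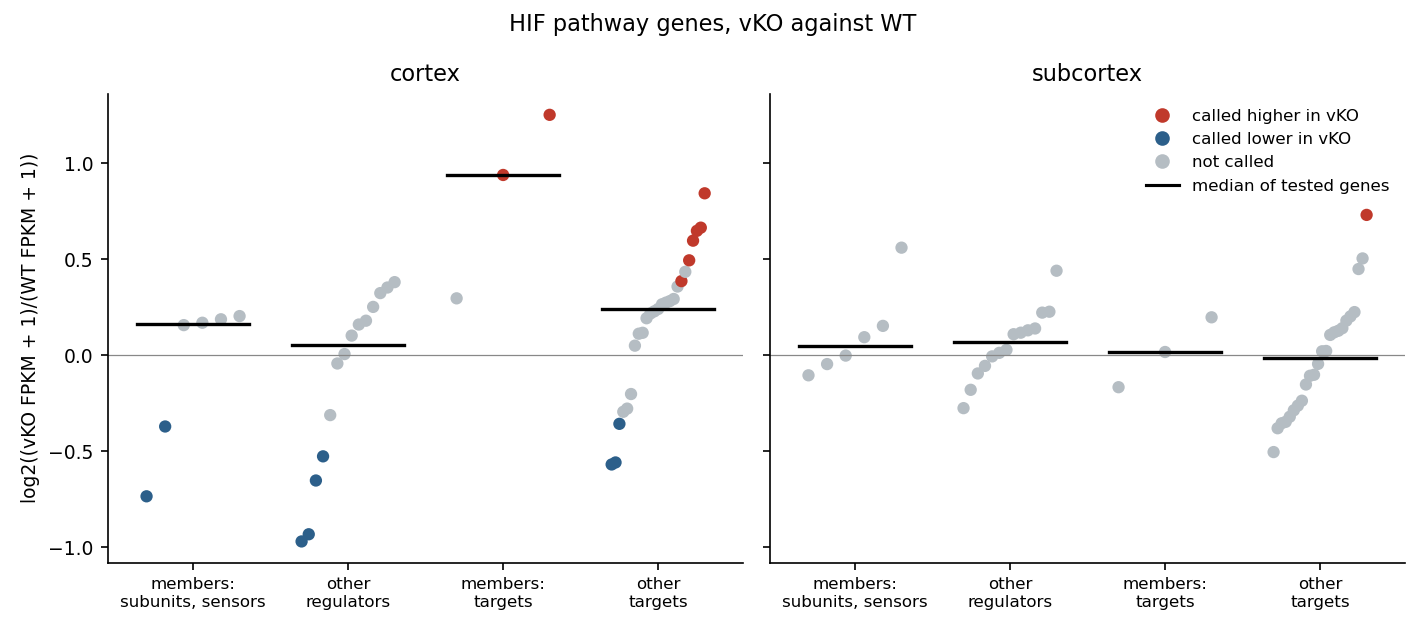
Log2 ratios of vKO over WT for the tested members, 14 other regulators and the further HIF targets, with red and blue points called higher and lower in vKO by the authors' q-value and a bar at the median. In cortex red points occur among the targets and blue ones in every class but the member targets, and in subcortex the single coloured point is Slc2a1.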

How the data were processed

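RNA was measured in 12 libraries, 3 for each of vKO cortex, WT cortex, vKO subcortex and WT subcortex, prepared from total RNA by a strand-specific kit, per the labels' protocols. Per the submitters' processing notes, HISAT2 2.0.1, Cufflinks 2.2.1 and Cuffdiff were used with the mm10 build, in an order those notes leave out. The deposited FPKM values are 1 per gene and group, and the authors' p-values and q-values come from their own test, per the file headers. Group letters in the columns were taken as W for wild type and M for the knockout. The deposited q-values differed from a Benjamini-Hochberg adjustment over tested genes by at most 5.2e-07. Library depth is unknown, so no interval is given.

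Log2 ratios were computed with 1 FPKM added (pandas 2.3.3, Python 3.11.15), which understates changes of low genes. Transcript length and GC content are those of the longest protein-coding GENCODE M21 transcript, and were found for 99.0% of tested cortex genes and 99.1% of tested subcortex genes. The trend was removed by subtracting the median ratio in 10 by 10 classes of length and GC, a step tested on simulated data. Copies of members were sought with blastn 2.17.0 (at least 90% identity over 200 bases). Gene positions are those of GENCODE M21.

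The members and lists were chosen with earlier results of these data known. Named are the 10 members, Reck, sex-linked genes, from each of the 2 further pathway lists up to 5 called genes with the lowest q-value (otherwise the 2 with the highest FPKM), and genes that lead a marker list. Other genes were named after their values were seen. No adjustment over a list alone was made. A summed list of cortex genes is not reported here.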

Additional observations from a re-analysis of the deposited data

How the results depend on the processing

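No paired analysis was possible because the tables hold 1 value per group, and leaving out single libraries was not run for the same reason. The count of members called lower in cortex, 2, was 1 at a q-value under 0.01 and 1 with a minimum change of 1.5-fold; Arnt was the member lost. The count of 2 higher in cortex did not change under these settings or when the authors' p-values were adjusted over genes of at least 1 FPKM. In subcortex the counts stayed at 0 and 0 under that adjustment. The 2 stricter settings could not raise them. The lowest subcortex q-value in the authors' deposited table was 0.0104, so no gene there could pass 0.01. The cortex median of the subunits and sensors, 0.16, was -0.052 after rescaling to a common sum. The cortex median of the targets, 0.94, was 0.73 after rescaling, 0.62 with Egln3 counted among the targets and 0.62 without Bnip3. The subcortex median of the targets, 0.02, was 0.12 after rescaling and 0.15 after removal of the trend with length and GC content. No called member changed sign under rescaling or removal of the trend. A pseudocount of 0.1 or none cannot change a sign, so these settings do not bear on it. Subtracting the median of tested cortex genes (0.0037) could not either, being small beside the called ratios. Over all genes, the cortex calls of 1108 higher and 1537 lower became 545 and 989 at a q-value under 0.01, and 591 and 929 with a minimum change of 1.5-fold. The subcortex calls of 62 higher and 36 lower became 0 and 0 at a q-value under 0.01. The causes were not tested.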

Other observations

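The log2 ratios in cortex and subcortex of 13158 genes tested in both tables, the 10 members left out, were compared with those of the tested targets. Closest to the target median pair (0.94 and 0.02) were 3 genes, Isg15, Fkbp7 and Mpeg1. That pair joins the cortex ratio of Ddit4 to the subcortex ratio of Bnip3, so it is the pair of no single target. Isg15 had 2.73 FPKM in vKO and 0.941 in WT cortex, and 1.59 in vKO and 1.52 in WT subcortex. Fkbp7 had 5.79 FPKM in vKO and 2.55 in WT cortex, and 4.01 in vKO and 4.09 in WT subcortex. Mpeg1 had 5.20 FPKM in vKO and 2.35 in WT cortex, and 2.77 in vKO and 2.82 in WT subcortex. Likeness over 2 ratios is a description and has no test.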
